A study of Oryctolagus cuniculus with 2 samples.

Results

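The axon guidance ligands and receptors examined here are the semaphorins, plexins, ephrins, Eph receptors, Slits, Robos, netrins, repulsive guidance molecules (RGMs), and the netrin and RGM receptors DCC, neogenin and UNC5. Members were taken from the rabbit array by gene symbol. Symbols beginning with *Sema*, *Plxn*, *Efna*, *Efnb*, *Epha*, *Ephb* or *Unc5* were chosen, together with *Slit1* to *Slit3*, *Robo1* to *Robo3*, *Ntn1*, *Ntn3*, *Ntn4*, *Ntng1*, *Ntng2*, *Dcc*, *Neo1*, *Rgma* and *Rgmb*. This gave 64 genes of 15605 genes that carry a probe set with 1 symbol, and each of the 64 was read by 1 probe set. Another 8 coding genes in the RefSeq table fit the rule, among them *Ntn1*, *Sema7a* and *Plxnb2*, and were not analysed here. *Unc50*, a Golgi and nuclear membrane protein, entered only because its symbol begins with the same letters. *Unc5cl* encodes a relative of the UNC5 receptors that is not known to guide axons.

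The study compared retinal RNA of the RVO (retinal vein occlusion) condition with that of untreated control retina in Dutch rabbits, 7 days after the right eye was treated. The veins of the RVO eye were closed with an argon laser, and the contralateral left eye served as control. Before RNA was taken, the lasered area was cut out of the retina, and neither the age nor the sex of the animals is given in the sources used here. Each condition was measured on 1 array, so no value below has a replicate error, no difference could be tested, and genes are counted by the size of the difference alone. The labels do not say whether the 2 arrays hold RNA of 1 animal.

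In development, these proteins steer growing axons by attraction and repulsion at the growth cone, the moving tip of an axon. Secreted class 3 semaphorins repel axons through plexins, mostly with neuropilins as co-receptors, whereas membrane-bound semaphorins bind plexins directly. Ephrins are tethered to the cell surface and bind Eph receptor tyrosine kinases on the touching cell, and their opposed gradients order the map of retinal ganglion cell axons in the brain of mice and chicks. Slits repel axons through Robo receptors. Netrin 1 attracts through DCC and repels through UNC5 receptors, and RGMs bind neogenin. Many of these proteins remain expressed in the adult retina, and several also act on blood vessels.

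Signals are given as deposited, on the log2 scale, and a difference is the log2 signal in RVO minus that in control, so that 1 is a 2-fold change. A gene counted as measured when the higher of its 2 signals reached 5. This held for 62 of the 64 members. The others were *Epha1*, with 4.66 in the RVO array and 4.70 in the control array, and *Unc5cl*, with 4.78 in the RVO array and 4.81 in the control array. All 62 measured members had signals above 5 in both arrays, so no member passed through 1 array alone.

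No axon guidance gene differed by 2-fold. Of the 62 measured members, 0 were over 2-fold higher and 0 were over 2-fold lower in RVO, where the shares among all 12724 measured genes were 3.50% higher and 0.479% lower. Differences of the members ran between -0.67 for *Efna5* and 0.71 for *Sema3c*. At the smaller size of 1.5-fold, a log2 difference of 0.58, 2 members were higher, *Sema3c* and *Ntn4*, and 4 were lower, *Efna5*, *Ntng1*, *Sema3f* and *Plxna4*. Among all genes 7.25% were higher and 3.03% were lower by that size. When a trend of the difference with signal was removed, 2 members remained lower by over 1.5-fold, *Efna5* and *Ntng1*, and *Efna1* passed that size upwards at 0.61. When quantile normalization was repeated, 3 remained lower, since *Plxna4* moved to -0.579, just inside that size. At 1.4-fold, a size chosen after the values were seen, 4 members were higher and 8 were lower, where the shares among all genes were 9.20% and 5.56%. The median over the members was -0.08, against -0.04 over all genes, and 38 of 62 members lay below 0, against 56.0% of all genes. Of the members 34 of 62 lay less than 0.25 from 0, against 62.9% of all genes. The disagreement in the difference between probe sets of 1 gene had a pooled SD of 0.189 over 118 genes with several probe sets. It is only a rough yardstick, since it also holds differences between probes, and no member had several probe sets. By more than 1 such SD 15 of 62 members were higher and 25 were lower, where the shares among all genes were 21.6% and 27.1%. The SD contains neither the spread between animals nor an error shared by a whole array.

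**Figure D1:**
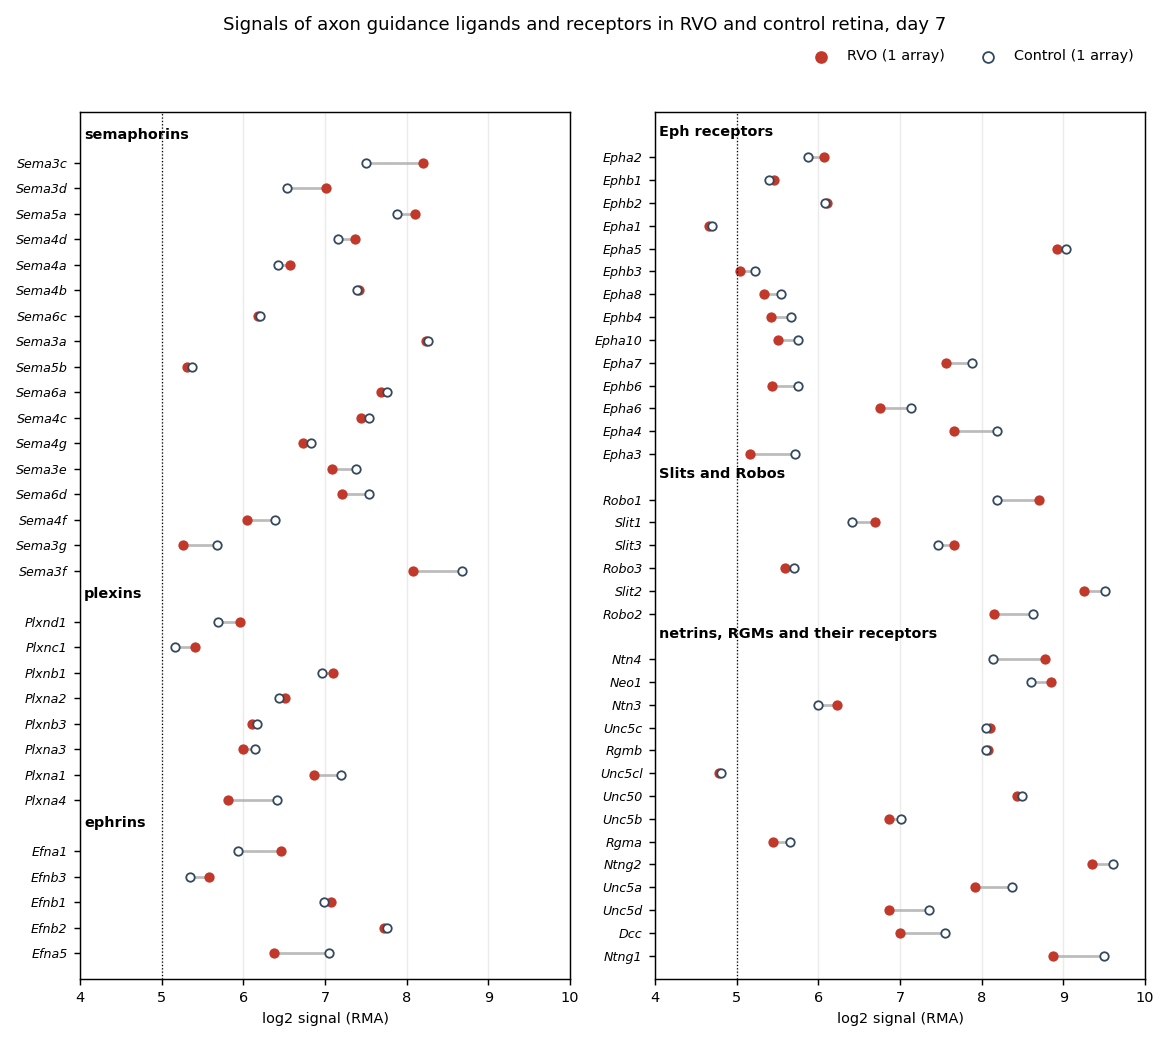
Log2 signal (RMA) of each of the 64 axon guidance genes in the RVO array (filled red points) and in the control array (open points), grouped by family and ordered by the difference, with a dotted line at the signal filter of 5. The points of each gene lie close together, with the widest gaps for *Sema3c* and *Ntn4*, higher in RVO, and *Efna5* and *Ntng1*, lower in RVO.

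Ganglion cells, whose axons form the optic nerve and which carry many guidance receptors, had lower marker signals in the same RVO array. For comparison, 3.50% of all genes were over 2-fold higher, 0.479% were over 2-fold lower and 56.0% lay below 0. Of 15 measured ganglion cell markers, 7 were lower by over 2-fold, 0 were higher by as much and 14 lay below 0, with a median of -0.92. Their summed linear signal was 5912 in the RVO array and 10833 in the control array, and all had log2 signals between 4.40 and 11.38 in RVO. Medians were -0.37 for 8 amacrine cell markers, -0.39 for 9 bipolar cell markers, -0.34 for 4 rod markers and -0.42 for 7 cone markers, and the rod markers had signals of at least 8.97 in both arrays. Markers of Müller glia, the radial support cells, had a median of 0.54 over 11 genes, with *Gfap*, an intermediate filament gene, highest at 1.20 and 3 below 0, *Rlbp1* at -0.67, *Glul* at -0.56 and *Kcnj10* at -0.37. Medians were 0.05 for 9 endothelial markers and -0.47 for 10 pigment epithelium markers. Other lists were higher in the RVO array: 12 of 17 microglia and macrophage markers were over 2-fold higher (median 1.33), 10 of 14 fibroblast markers (median 1.31), 4 of 8 pericyte and smooth muscle markers (median 0.83) and 10 of 13 skeletal muscle markers (median 2.37). Of 6 measured lens markers, *Crygs* was over 2-fold higher at 4.47, the highest difference of all genes, while 4 lay below 0. The number of cells of a type, the RNA per cell and the tissue taken into each sample cannot be told apart in tissue RNA. What part these cell types have in the differences of the guidance genes was not tested.

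All 17 semaphorins among the members were measured. Their median difference was -0.06, with 6 above 0 and 11 below, where 56.0% of all genes lay below 0. The 6 secreted class 3 semaphorins among them were spread most widely, between -0.60 and 0.71, while the 11 membrane-bound semaphorins of classes 4, 5 and 6 ran between -0.34 and 0.22. *Sema3c*, which steers cardiac neural crest cells in mice, had the highest difference of all members, with 8.20 in the RVO array and 7.50 in the control array (0.71, 1.63-fold, probe set 19857890). Of all genes, 5.82% had a higher difference than this. *Sema3d* was the next highest class 3 gene, with 7.01 in the RVO array and 6.53 in the control array (0.48). Both stood above the other class 3 genes, of which none was higher in the RVO array.

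*Sema3f*, a repellent that acts through neuropilin 2, was the lowest semaphorin, with 8.07 in the RVO array and 8.67 in the control array (-0.60, 0.661-fold, probe set 19875103). Its difference was lower than that of all but 2.80% of genes. *Sema3g*, a semaphorin of endothelium in mice, had 5.26 in the RVO array and 5.68 in the control array, a difference of -0.42. *Sema3e*, which binds plexin D1 without a neuropilin, had 7.08 in the RVO array and 7.38 in the control array (-0.29). *Sema3a*, the prototype repellent of the class, had 8.23 in the RVO array and 8.27 in the control array, a difference of -0.03 that lies well within the disagreement between probe sets. In the order of the RefSeq gene table *Sema3d*, *Sema3a* and *Sema3e* are direct neighbours with 0 coding genes between them, and their differences were 0.48, -0.03 and -0.29.

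Among the membrane-bound semaphorins the differences were small. *Sema5a*, which with *Sema5b* confines neurites to the inner plexiform layer of the mouse retina, had 8.10 in the RVO array and 7.88 in the control array (0.22), and *Sema5b* had 5.31 in RVO and 5.37 in control (-0.06). *Sema4d*, a ligand of plexin B1 that leukocytes also carry, had 7.37 in the RVO array and 7.16 in the control array (0.21). *Sema4a*, mutated in a human retinal degeneration, differed by 0.15. The lowest were *Sema4f*, with 6.04 in RVO and 6.38 in control (-0.34), and *Sema6d*, a ligand of plexin A1 at the optic chiasm of mice, with 7.20 in RVO and 7.54 in control (-0.34). The other 5, *Sema4b*, *Sema4c*, *Sema4g*, *Sema6a* and *Sema6c*, lay between -0.10 and 0.03. *Sema6a* directs the layering of neurites in the mouse retina through class A plexins. The signs of *Sema5b* and *Sema6c* were not stable, since both turned positive when a trend with signal was removed.

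The 8 measured plexins, the receptors of the semaphorins, had a median of 0.01, with 4 above 0 and 4 below. Of 4 class A plexins 3 were below 0, with a median of -0.24. Of 4 plexins of classes B, C and D 3 were above 0, with a median of 0.19. Among all genes 56.0% lay below 0, and the contrast between these small groups was not tested. *Plxna4*, a receptor of Sema3a and Sema6a, had 5.81 in the RVO array and 6.41 in the control array (-0.60, 0.661-fold, probe set 19862210), and only 2.82% of genes had a lower difference. *Plxna1* followed with 6.86 in RVO and 7.19 in control (-0.33), and *Plxna3* with 5.99 in RVO and 6.15 in control (-0.16). *Plxna2* differed by 0.07. The highest plexin was *Plxnd1*, a receptor of endothelial cells, with 5.96 in RVO and 5.69 in control (0.27). *Plxnc1*, a receptor of Sema7a, had 5.40 in RVO and 5.16 in control (0.24). *Plxnb1*, the receptor of Sema4d, differed by 0.13, and *Plxnb3*, a receptor of Sema5a, by -0.06, a sign that turned with the trend removed. Ligands set beside a known receptor ran the same way in some cases and opposite ways in others. *Sema3c* at 0.71 and *Plxnd1* at 0.27 were both above 0, and *Sema6d* at -0.34 and *Plxna1* at -0.33 were both below it. *Sema3e* at -0.29 stood against the same *Plxnd1*, *Sema5a* at 0.22 against *Plxnb3* at -0.06, and *Sema3a* at -0.03 beside *Plxna4* at -0.60.

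**Figure D2:**
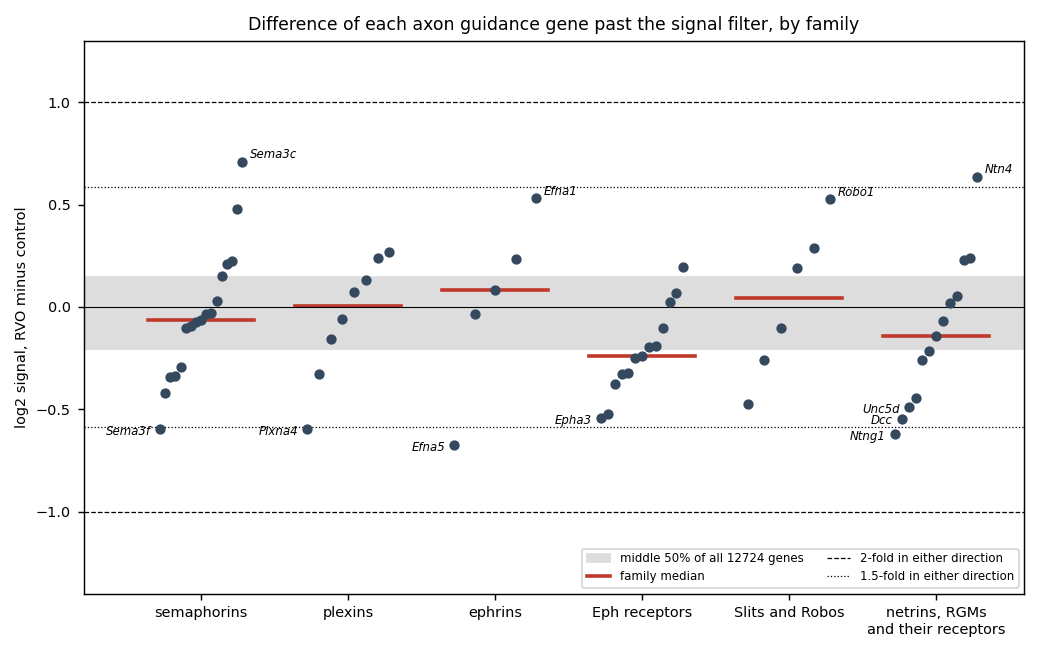
Difference in log2 signal (RVO minus control, 1 array each) of every measured axon guidance gene by family, with the family median in red, the middle 50% of all 12724 genes in grey, and lines at 1.5-fold and 2-fold. All points lie inside the 2-fold lines, and 10 of the 13 Eph receptors lie below 0, against 56.0% of all genes.

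Of 5 measured ephrins, 3 were above 0 and 2 below, with a median of 0.08, and the A-class ligands lay at both ends. *Efna5*, which forms a gradient in the brain targets of retinal axons in mice and is also made in the retina, had 6.37 in the RVO array and 7.04 in the control array (-0.67, 0.626-fold, probe set 19743925). It was the lowest member, and 1.82% of all genes had a lower difference. *Efna1*, which tumor necrosis factor induces in endothelial cells, had 6.47 in the RVO array and 5.94 in the control array (0.53, 1.44-fold). The B-class ligands differed less, with *Efnb3* at 0.24, *Efnb1* at 0.08 and *Efnb2*, a marker of arteries, at -0.03.

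The Eph receptors had the lowest median of the 6 families, a difference between families that was not tested. Of 13 measured Eph receptors, 10 lay below 0 and 3 above, where 56.0% of all genes lay below 0. Their median was -0.24, and none passed 1.5-fold. Most of these receptors had a mean signal under 6, not far above the filter of 5. With the trend of the difference with signal removed, the median was -0.14, against 0.009 over all genes. Among 8 EphA receptors, which mostly bind A-class ephrins, 7 lay below 0 with a median of -0.29. *Epha3*, whose gradient in the chick retina sets the ganglion cell map, had the lowest difference, with 5.17 in the RVO array and 5.71 in the control array (-0.54, 0.686-fold). *Epha4*, which binds ephrins of both classes, had 7.66 in the RVO array and 8.18 in the control array (-0.52). *Epha6*, which is graded over mouse ganglion cells, differed by -0.38, *Epha7* by -0.32, *Epha10*, a receptor without an active kinase, by -0.25 and *Epha8* by -0.20. *Epha5*, also graded in the mouse retina, had signals that lay close together, at 8.92 in RVO and 9.03 in control (-0.10). The exception was *Epha2*, a receptor of epithelial and endothelial cells, with 6.06 in RVO and 5.87 in control (0.20).

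The 5 EphB receptors had a median of -0.19, and 3 lay below 0. *Ephb6*, another receptor without kinase activity, was lowest at -0.32, followed by *Ephb4*, a marker of veins, with 5.42 in the RVO array and 5.66 in the control array (-0.24), and *Ephb3* at -0.19. *Ephb1*, which marks the ganglion cells of uncrossed axons in mice, differed by 0.07 and *Ephb2* by 0.02. The signals of these receptors lay between 5.03 and 6.11 in RVO and between 5.23 and 6.08 in control. The artery marker *Efnb2* and the vein marker *Ephb4*, a ligand and its receptor, thus had -0.03 and -0.24 in this pair of arrays. *Efna5* at -0.67 stood beside its receptors *Epha3* at -0.54, *Epha4* at -0.52 and *Epha5* at -0.10, and *Efna1* at 0.53 beside its receptor *Epha2* at 0.20. *Efnb3* at 0.24 and *Ephb3* at -0.19 ran opposite ways.

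The 3 Slits and 3 Robos had a median of 0.05, with 3 above 0 and 3 below. *Robo1* had 8.71 in the RVO array and 8.18 in the control array (0.53, 1.44-fold). *Robo2*, the neighbouring gene in the RefSeq table with 0 coding genes between, had 8.15 in the RVO array and 8.62 in the control array (-0.47, 0.721-fold). These receptors of the same ligands, which both take part in the vessel growth that Slit2 drives in the mouse retina, thus differed in opposite directions, each by more than the SD between probe sets. By more than that SD, 21.6% of all genes were higher and 27.1% were lower. *Robo3*, known from commissural axons, differed by -0.10. *Slit2*, a repellent of retinal axons in mice, had 9.25 in the RVO array and 9.51 in the control array (-0.26). *Slit1* had 6.70 in RVO and 6.41 in control (0.29), and *Slit3* had 7.65 in RVO and 7.46 in control (0.19). *Robo4*, the endothelial relative outside the chosen symbols, had 5.26 in RVO and 5.42 in control, a difference of -0.16.

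Netrins, RGMs and their receptors had a median of -0.14 over 13 measured genes, or -0.18 without *Unc50*, which differed by -0.07. *Ntn4*, a netrin of basement membranes that binds laminins, had 8.77 in the RVO array and 8.13 in the control array (0.64, 1.55-fold, probe set 19849046). It was the second highest member, and 6.53% of all genes had a higher difference. *Ntn3* had 6.23 in RVO and 6.0 in control (0.23). The netrin G genes encode membrane-anchored adhesion molecules of axons that bind neither DCC nor UNC5. *Ntng1* had 8.87 in the RVO array and 9.49 in the control array (-0.62, 0.650-fold, probe set 19767367), lower than all but 2.33% of genes. *Ntng2* had 9.35 in RVO and 9.61 in control (-0.26). *Lrrc4c*, the partner of netrin G1 on the opposite cell, differed by -0.07.

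Most of the DCC and UNC5 receptors of netrin 1 lay below 0 in this pair of arrays, where 56.0% of all genes did so. *Dcc*, the attractive receptor, had 7.0 in the RVO array and 7.55 in the control array (-0.54, 0.685-fold). Among the 4 UNC5 receptors 3 lay below 0, with a median of -0.29. *Unc5d* had 6.86 in RVO and 7.35 in control (-0.49), *Unc5a* had 7.92 in RVO and 8.37 in control (-0.45), and *Unc5b*, which endothelial tip cells carry, had 6.86 in RVO and 7.01 in control (-0.14). *Unc5c* differed by 0.06, and the differences of *Unc5b* and *Unc5c* were smaller than the SD of 0.189 between probe sets. *Neo1*, which encodes neogenin, had 8.85 in the RVO array and 8.61 in the control array (0.24). Its ligand gene *Rgma* had 5.44 in RVO and 5.65 in control (-0.21), and *Rgmb*, which also serves bone morphogenetic protein receptors, had 8.07 in RVO and 8.05 in control, a difference of 0.02 whose sign turned when quantile normalization was repeated.

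**Figure D3:**
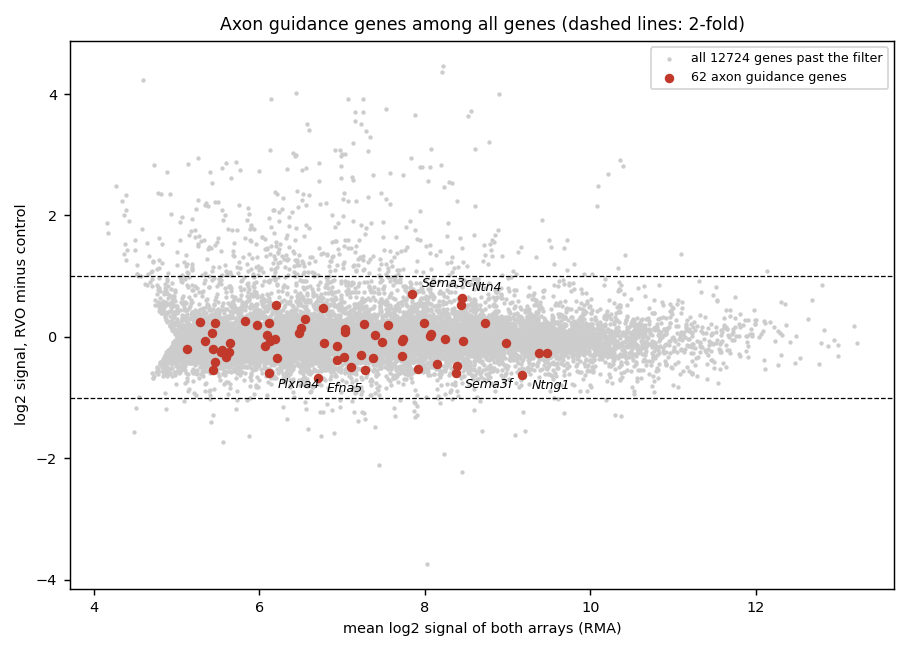
Difference in log2 signal (RVO minus control) against the mean log2 signal of both arrays for the 62 axon guidance genes (red) among all 12724 measured genes (grey), with dashed lines at 2-fold. Members occur from 5.13 to 9.48 in mean signal and lie inside the 2-fold lines at every level. Less than 0.25 from 0 are 34 of the 62 members, against 62.9% of all genes.

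Members beyond 1.5-fold occurred at several levels of signal. Of the 15 members with a mean signal between 5 and 6, none passed 1.5-fold, and of the 14 members between 8 and 10, 1 was higher and 2 were lower by that size. Of the 16 members between 6 and 7, 0 were higher and 2 were lower, and of the 17 between 7 and 8, 1 was higher and 0 were lower. Over all genes, 7.25% were higher and 2.61% were lower at 5 to 6, and 9.09% and 2.91% at 6 to 7. At 7 to 8 the shares were 7.69% higher and 3.16% lower, and at 8 to 10 they were 4.76% and 2.75%. Medians were -0.03 over 31 ligands and -0.17 over 30 receptors. Below 0 lay 17 of the ligands (54.8%) and 20 of the receptors (66.7%), against 56.0% of all genes. The contrast of ligands with receptors was not tested. Of the 6 members beyond 1.5-fold, 5 were ligands or ligand-like netrin G and 1, *Plxna4*, was a receptor.

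Genes that work with these receptors were read from lists of co-receptors and intracellular effectors. Of 107 listed genes 87 were measured, of which 4 were over 2-fold higher and 0 over 2-fold lower in RVO, with a median of 0.06 and 32 below 0. Among all genes 3.50% were higher and 0.479% lower by that size, and 56.0% lay below 0. *Nrp1*, the neuropilin that serves both class 3 semaphorins and VEGF, had 6.78 in the RVO array and 5.64 in the control array (1.14, 2.21-fold). *Nrp2* had 6.58 in RVO and 6.49 in control (0.08). *Chl1*, a cell adhesion molecule that binds neuropilin 1, had 10.54 in the RVO array and 9.51 in the control array (1.03). These were the only 2 of 22 measured co-receptors and adhesion partners beyond 2-fold. *Lingo1*, a partner of the Nogo receptor, was lowest at -0.70, followed by *Flrt1*, an adhesion molecule of the family that binds UNC5 receptors, at -0.46.

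Among 26 measured GTPases and their regulators, *Ect2* and *Dock2* were beyond 2-fold. *Ect2*, an activator of RhoA in cell division, had 5.38 in the RVO array and 3.47 in the control array (1.91), so that the size of its difference rests on a control signal under 5. *Dock2*, an activator of Rac in leukocytes, had 7.03 in the RVO array and 5.33 in the control array (1.71). Markers of microglia and macrophages had a summed linear signal of 5108 in the RVO array and 1510 in the control array, with log2 signals of at least 4.42 in both, and their part in the difference of *Dock2* was not tested. The lowest of that list were the Rnd GTPases *Rnd2* at -0.58 and *Rnd1* at -0.42. None of 11 measured genes of the collapsin response mediators, MICALs and their kinases was beyond 1.5-fold, with *Farp1*, a partner of class A plexins, at 0.51 and *Dpysl3* at 0.41 highest, and *Gsk3b* at -0.32 and *Dpysl2*, which encodes CRMP2, at -0.26 lowest. Of 28 measured kinases and cytoskeletal effectors, *Cap1*, which binds actin, was highest at 0.63, followed by the kinase *Pak1* at 0.46. *Trim9*, a ligase that binds DCC, was lowest at -0.36, beside *Pak6* at -0.35.

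**Figure D4:**
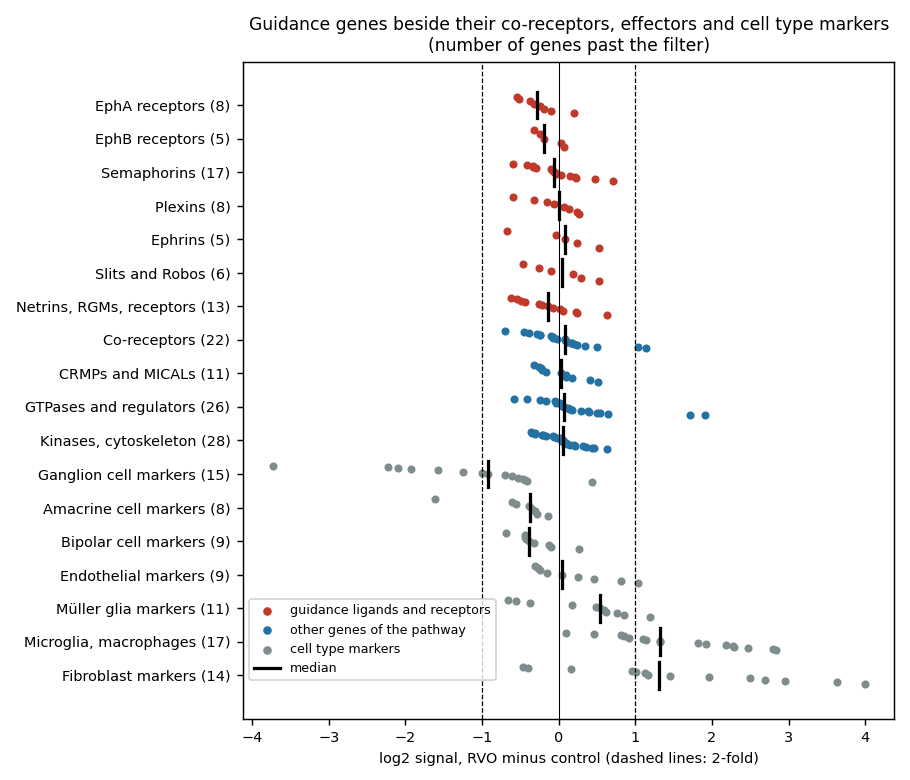
Difference in log2 signal (RVO minus control) of each measured gene of the guidance families (red), of the lists of co-receptors and effectors (blue) and of cell type markers (grey), with the median of each list as a black bar, the number of genes in brackets and dashed lines at 2-fold. Guidance ligands and receptors lie between -0.67 and 0.71, while ganglion cell markers reach -3.73 and fibroblast markers 4.0.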

How the data were processed

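Retinal RNA of 1 RVO and 1 control sample was hybridized to Rabbit Gene 1.0 ST arrays. Per the methods, the authors ran RMA in R 3.6.0 and deposited the resulting log2 signals. RMA sets both arrays to a shared distribution, so that a change common to most genes would be removed. They were used as deposited. Of 26193 probe sets, 15816 carried 1 symbol in the platform annotation, 376 several and 10001 none. The probe set with the highest mean was taken for each gene, and genes with a signal of at least 5 in either array were counted as measured. Array signals have no count depth, and their number limits the precision. Signals depend on the probes, so a higher signal of 1 gene than of another does not show more transcript. With 1 array per condition no test was run. Every measured member was accounted for, with both signals for those beyond 1.5-fold, for the extremes of each family and for the 5 members of highest mean signal, and from the pathway lists each gene beyond 2-fold and the extremes were named. The members and lists were chosen with earlier results of these data known. Ligands and receptors set side by side were paired from general knowledge after their values were seen. RefSeq assembly mOryCun1.1 was used for names and gene order only, and matched the identifiers of all 64 members. Counting was tested on simulated data. Alternatives changed the filter, the scaling, the probe set rule and the size. Python 3.11.15, pandas 2.3.3, numpy 2.4.6 and statsmodels 0.14.6 were used.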

Additional observations from a re-analysis of the deposited data

Results flagged for a closer look

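Of 2 probe sets that carry several symbols including a guidance gene, and which entered no comparison, 1 with a semaphorin among its symbols was higher in the RVO array than in the control array, at 6.27 in RVO and 5.71 in control. The difference of 0.57 was larger than the SD of 0.189 between probe sets of a gene, and 21.6% of all genes were higher by more than that SD. Which gene of the probe set gave the signal is unknown. The other, with ephrin symbols, had 6.75 in RVO and 7.17 in control.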

How the results depend on the processing

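Counts beyond 2-fold were 0 in both directions under all 7 alternatives fixed for the members. With a trend with mean signal removed, the members lower by over 1.5-fold numbered 2 in place of 4, and with quantile normalization repeated 3. At a size of 1.4-fold, chosen after seeing the data, 4 were higher and 8 were lower. Medians of members and families moved by less than the SD of 0.189 between probe sets, although that of the plexins turned to -0.11 with the filter at 6. The median of the Eph receptors was -0.14 with the trend removed, against -0.24 in the main setting. The largest shift of a member under rescaling was 0.098 after rounding, and 4 members within 0.07 of 0 changed sign. Each member had 1 probe set, so the rule for probe sets changed nothing for them. No paired analysis was possible because each condition had 1 array. The spread between animals is unknown.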

Other observations

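Other surface proteins that shape neurites were read from a list written after the values of the members had been seen. Among all measured genes 56.0% lay below 0, and their median was -0.04. All 6 measured teneurins and latrophilins, adhesion partners across synapses, lay below 0, between -0.55 and -0.05, with a median of -0.24. *Tenm3*, which directs ganglion cell wiring in mice, had 7.50 in the RVO array and 8.05 in the control array (-0.55). All 6 contactins also lay below 0, between -0.39 and -0.06, with a median of -0.23. *Cntn2*, which was also counted among the co-receptors and adhesion partners, was lowest at -0.39. Of 4 measured Slitrk genes, *Slitrk2* was higher, with 9.89 in the RVO array and 9.21 in the control array (0.68), while *Slitrk1*, *Slitrk4* and *Slitrk5* lay between -0.55 and -0.36. Of 7 measured myelin and scar inhibitors of axon growth 5 lay below 0, with a median of -0.24. *Omg*, the oligodendrocyte myelin glycoprotein, was lowest, with 10.01 in RVO and 10.72 in control (-0.71), followed by *Bcan* at -0.43. *Vcan* was highest at 0.26, and *Rtn4*, which encodes Nogo, had 12.01 in RVO and 11.87 in control (0.14). None of these genes was beyond 2-fold, and no difference could be tested.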
